A study of Mus musculus with 6 samples.

Results

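The 10 genes described here were the AP-1 subunit genes Jun, Junb, Jund, Fos, Fosb, Fosl1 and Fosl2, the related bZIP gene Atf3, and the immediate early genes Egr1 and Ier2. They were taken by name from the 23259 gene names of the deposited table, each had 1 row, and none shared all its values with another gene. The study labelled mouse embryos with 4-thiouridine, a uridine analogue that is built into RNA during transcription and that reads as a T-to-C mismatch after alkylation with iodoacetamide. Reads that carry this mismatch (T-to-C reads) include RNA made while the label was present. There is no unlabelled control here, so how many of them stem from sequencing errors or sequence differences is not known. The groups were wild-type (WT) zygotes, Pabpn1l-null zygotes and WT embryos at the 2-cell stage, with 2 samples each, 50 embryos per sample and 2 h of labelling at 200 μM. The sources used here do not say how the null allele was made, nor whether mothers, embryos or both carried it. The protocol text speaks of zygotes taken at 26 h after hormone injection and is the same for all samples, so the age of the 2-cell embryos is not known here.

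AP-1 is a dimer of bZIP proteins that hold each other through leucine zippers. JUN proteins can pair among themselves, whereas FOS proteins need a JUN or another bZIP partner, and the pair chosen sets which DNA sites are bound. Immediate early genes are a class that cells transcribe within minutes of a signal and without new protein, mostly through kinases of the MAP kinase families and the serum response factor SRF, and many of their mRNAs are short-lived. The mouse zygote lives mainly on RNA stored by the oocyte, and the main wave of embryonic transcription starts at the 2-cell stage.

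Promoters were set side by side for the 4 genes with a RefSeq promoter entry that were higher in the 2-cell column, Jun, Junb, Jund and Fosb, and for Fos, the founding FOS partner, which was not called. The lines give the 250 bases before the start that the promoter table uses (RefSeq, GRCm38.p6), for Jun at chr4:95052223-95052472 on the minus strand, Junb at chr8:84978749-84978998 on the minus strand, Jund at chr8:70697489-70697738 on the plus strand, Fosb at chr7:19310046-19310295 on the minus strand and Fos at chr12:85473640-85473889 on the plus strand. For Fosb that start lies inside the gene's RefSeq span, so 73 of the 250 bases are within the span given for the gene below. For the other 4 genes none is. Capitals mark the searched motifs TGACATCA, TGACGT and TATAAA.
Jun: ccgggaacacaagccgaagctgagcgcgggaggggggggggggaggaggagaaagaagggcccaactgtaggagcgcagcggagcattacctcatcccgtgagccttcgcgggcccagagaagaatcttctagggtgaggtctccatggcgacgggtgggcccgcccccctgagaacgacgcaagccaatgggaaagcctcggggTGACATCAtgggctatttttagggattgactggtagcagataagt
Junb: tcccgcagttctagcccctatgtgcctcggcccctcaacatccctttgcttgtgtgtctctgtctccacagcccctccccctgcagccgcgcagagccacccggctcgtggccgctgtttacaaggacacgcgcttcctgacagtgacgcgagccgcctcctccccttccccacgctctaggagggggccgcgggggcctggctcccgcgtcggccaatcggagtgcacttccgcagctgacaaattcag
Jund: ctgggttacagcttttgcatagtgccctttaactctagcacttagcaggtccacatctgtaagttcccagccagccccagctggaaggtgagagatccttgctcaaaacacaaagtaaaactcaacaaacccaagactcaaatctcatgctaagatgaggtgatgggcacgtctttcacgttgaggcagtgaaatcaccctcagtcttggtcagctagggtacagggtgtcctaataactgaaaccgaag
Fosb: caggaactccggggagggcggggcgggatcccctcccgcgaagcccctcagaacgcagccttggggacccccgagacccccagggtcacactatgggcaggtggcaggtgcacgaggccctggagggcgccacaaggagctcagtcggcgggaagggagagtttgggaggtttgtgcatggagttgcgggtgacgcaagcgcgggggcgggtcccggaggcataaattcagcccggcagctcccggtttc
Fos: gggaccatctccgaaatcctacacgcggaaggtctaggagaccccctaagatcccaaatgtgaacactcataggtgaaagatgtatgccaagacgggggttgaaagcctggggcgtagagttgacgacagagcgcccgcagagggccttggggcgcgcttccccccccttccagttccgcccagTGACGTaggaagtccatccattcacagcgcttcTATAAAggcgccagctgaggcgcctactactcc
Promoters were found for 7 of the 10 genes, and those of Ier2, Fosl1 and Egr1 were not in the table used. On both strands of the 300 bases that end 50 bases after the start, the AP-1 site TGACTCA, the cAMP response element TGACGTCA, the ETS core CCGGAA and the SRF-binding CArG box were in 0 of the 7, against 4.74%, 2.31%, 18.6% and 1.5% of the 19041 promoters of genes in the table. TATAAA was in 2 of the 7, before the start of Fos and at bases 1 to 6 of Junb, and in 12.2% of all promoters. TGACATCA, the variant AP-1 site known from the Jun promoter, was found in Jun alone, from -45 to -38, and in 2.61% of all promoters. TGACGT, part of the cAMP response element, was in Fos and Atf3 and in 8.69% of all. The last pair of motifs was added after the first search. A match describes letters in this window and says nothing of binding, and bases outside the window were not searched.

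The table holds 1 column of total reads and 1 of T-to-C reads per group, so no difference has a replicate check, no spread between samples can be given, and each test compares libraries, not conditions. Depth was 3001472 reads for WT zygotes, 1270347 for null zygotes and 4020444 for 2-cell embryos, of which 3.03%, 3.86% and 4.54% were T-to-C reads. The null column's reads were clumped. With 3 to 5 reads predicted from the WT column for 969 genes, 54.9% of these genes had none, against 2.08% for reads drawn independently. This was measured in the null column alone, against the WT zygote column. Reads were counted as molecules of 7 reads in every column by choice, to treat the columns alike, and with every read as 1 molecule 6648 genes in place of 3633 were called in total reads of 2-cell embryos. A gene is called higher or lower below where the exact conditional binomial test on molecules gave a Benjamini-Hochberg adjusted p under 0.05 over all genes tested and the ratio was at least 2-fold. Intervals are exact 95% intervals on molecules and, like the limit of 3 molecules or 21 reads that a count of 0 allows, cover counting error only. Levels are given as RPM (reads per 1000000 reads of the column, after TMM scaling), which are shares of a library, so fewer RNA molecules per embryo and a larger pool of other RNA cannot be told apart. Pabpn1l itself had 47 WT zygote reads, 4 null zygote reads and 14 2-cell reads, a null-to-WT ratio of 0.188 with an upper end of 2.20. Of 13 zygote markers in the table none was at 0 in any column, and 12 of 16 tested 2-cell markers were called higher and 1 lower in 2-cell embryos, 11 of the 12 among markers that passed the filter only through 2-cell reads.

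The 3 Jun genes, Fosb and Ier2 were higher in the 2-cell column than in the WT zygote column, while Fos, Fosl2, Atf3 and Egr1 were not called and Fosl1 was not detected. The number called was 5 of 9 tested, and 16.3% of the 11262 genes tested were called higher (16.0% lower). Jun, Fos and Ier2 passed the filter of 20 reads only through their 2-cell reads, so they could be tested only because of those reads. Of the 6 genes that passed on zygote reads alone, 3 were called higher, against 12.9% of the 8772 genes of the whole table that passed so. The summed level of the 10 genes was 138.9 RPM in the WT zygote column, 154.5 in the null column and 838.9 in the 2-cell column.

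Jun, the subunit that JUN N-terminal kinases phosphorylate, lies at chr4:95049036-95052222 of GRCm38. Its reads numbered 11 (WT zygotes), 1 (null zygotes) and 461 (2-cell embryos), the order used below. In RPM this was 3.71, 0.746 and 119.5. The ratio of 2-cell embryos to WT zygotes was 32.2 (7.46 to 415), and 2.58% of genes tested had a higher one. Both zygote counts were within the limit of 21 reads and the 2-cell count was far above it.

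Junb, which can restrain JUN activity in some settings, lies at chr8:84976909-84978748. It had 42, 20 and 418 reads in the same order, or 14.2, 14.9 and 108.4 RPM. The ratio of 2-cell embryos to WT zygotes was 7.65 (3.32 to 21.7), with both zygote levels far below the 2-cell level.

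Jund, the subunit most cells express without a stimulus, lies at chr8:70697739-70700616 and had the most reads of the 10 genes. Its reads were 97, 38 and 1269, or 32.7, 28.4 and 329.0 RPM. The ratio of 2-cell embryos to WT zygotes was 10.06 (5.83 to 18.8). Jund kept its call under each alternative tried, also when at least 50 reads were asked for in 2 columns.

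Fosb, a FOS partner of the JUN proteins, lies at chr7:19302696-19310118 and had 44, 23 and 224 reads, or 14.8, 17.2 and 58.1 RPM. Its ratio of 3.91 (1.64 to 11.1) was called, but lost the call with edgeR's exact test at an assumed biological variation of 0.4 (adjusted p = 0.0867). Fosl2, which codes for FRA-2, had 29, 40 and 131 reads, or 9.78, 29.9 and 34.0 RPM. Its 2-cell ratio of 3.47 (1.17 to 13.7) was not called (adjusted p = 0.0547 by the exact conditional binomial test), and was called with DESeq2's median-ratio factors (adjusted p = 0.0177) and with every read counted as 1 molecule.

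Fos, the founding partner of JUN, had 5, 0 and 34 reads, or 1.69, 0 and 8.81 RPM. The ratio was 5.23 (0.462 to 873) and was not called with molecules of 7 reads. It was called with every read counted as 1 molecule (adjusted p = 1.37e-04 by the exact conditional binomial test). The call was also made with molecules of 7 reads in the null column alone, and not with edgeR's exact test (adjusted p = 0.108). A difference for Fos thus depended on how reads were counted and tested. Fosl1, which codes for FRA-1, had 0 reads in all 3 columns, which allows up to 7.08, 15.7 and 5.44 RPM. Part of its span is shared with Ccdc85b in RefSeq.

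Ier2, which codes for a nuclear protein, lies at chr8:84661331-84662852 and had 4, 0 and 454 reads, or 1.35, 0 and 117.7 RPM. Its ratio of 87.2 has a lower end of 10.04, and 1.22% of genes tested had a higher one. Among the 10 genes this was the largest ratio, and with so few zygote reads its upper end is not bounded in a useful way.

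Egr1, a zinc finger factor and a classic target of SRF, had 145, 72 and 181 reads, or 48.9, 53.7 and 46.9 RPM. Its level was the most even of the 9 detected genes, with a 2-cell ratio of 0.960 (0.518 to 1.80) that was 0.21 on the log2 scale with DESeq2's median-ratio factors, against -0.06. The interval for Egr1 does not overlap those of Jun, Junb, Jund or Ier2. Atf3, a stress-induced bZIP factor, had 35, 13 and 64 reads, or 11.8, 9.70 and 16.6 RPM, with a ratio of 1.41 (0.425 to 5.32) that was not called.

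**Figure D1:**
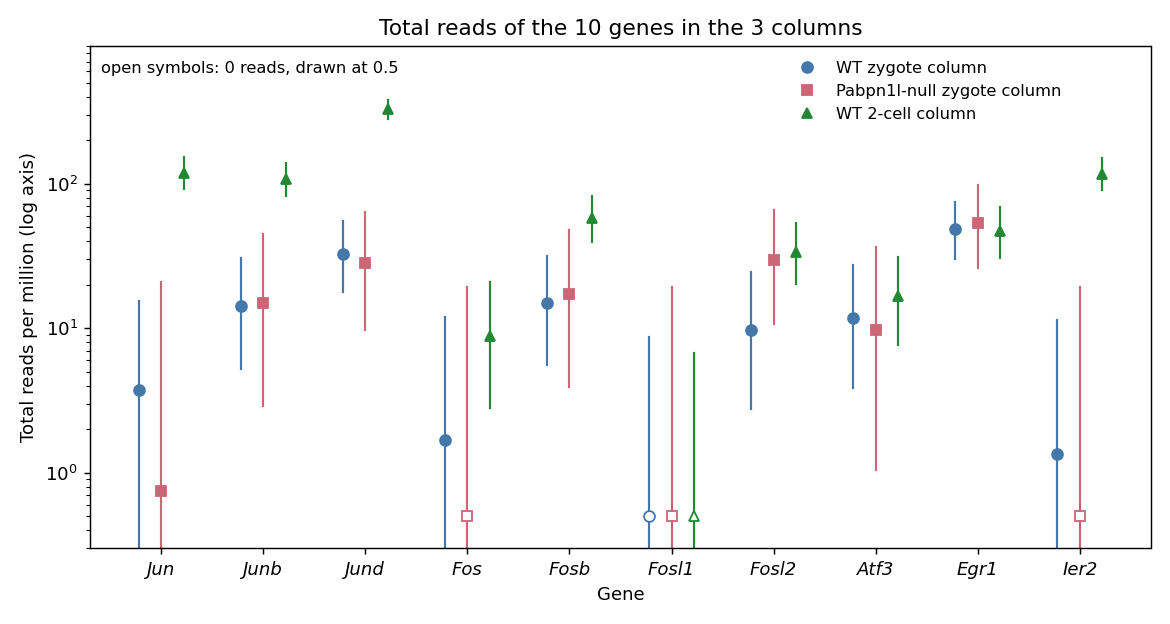
Total RPM (log axis) of the 10 genes in the 3 columns, with exact 95% Poisson intervals on molecules of 7 reads that run off the lower axis where they reach near 0. Open symbols mark 0 reads and are drawn at 0.5. Jun, Junb, Jund and Ier2 lie above 100 RPM in the 2-cell column alone, while the 3 symbols of Egr1 lie between 46.9 and 53.7.

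Null zygotes were compared with WT zygotes to ask whether loss of Pabpn1l, a poly(A)-binding protein gene of oocytes and early embryos, went with a difference in these genes. None of the 9 tested was called in either direction, where 1.39% of 11262 genes were called, and 0 of the 9 had an unadjusted p under 0.05 in the exact conditional binomial test. Junb had a ratio of 1.05 (0.162 to 5.03), Jund of 0.867 (0.257 to 2.48), Fosb of 1.16 (0.206 to 5.12), Atf3 of 0.822 (0.0699 to 5.20) and Egr1 of 1.10 (0.466 to 2.43). These intervals allow differences of more than 2-fold either way, so the values do not show that the levels were equal. The ratio farthest from 1 was that of Fosl2, 3.05 (0.715 to 14.5), which was called with every read counted as 1 molecule (adjusted p = 4.49e-05) and not with edgeR's exact test with that assumed variation, which called 0 members. Jun, Fos and Ier2 were within the detection limit in both zygote columns, so no ratio is given. They passed the filter only through their 2-cell reads and had too few zygote reads to be called. The absence of calls therefore rests on the other 6 genes. The comparison with 2-cell embryos uses the same WT zygote column, and its ratios are therefore not independent of these.

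**Figure D2:**
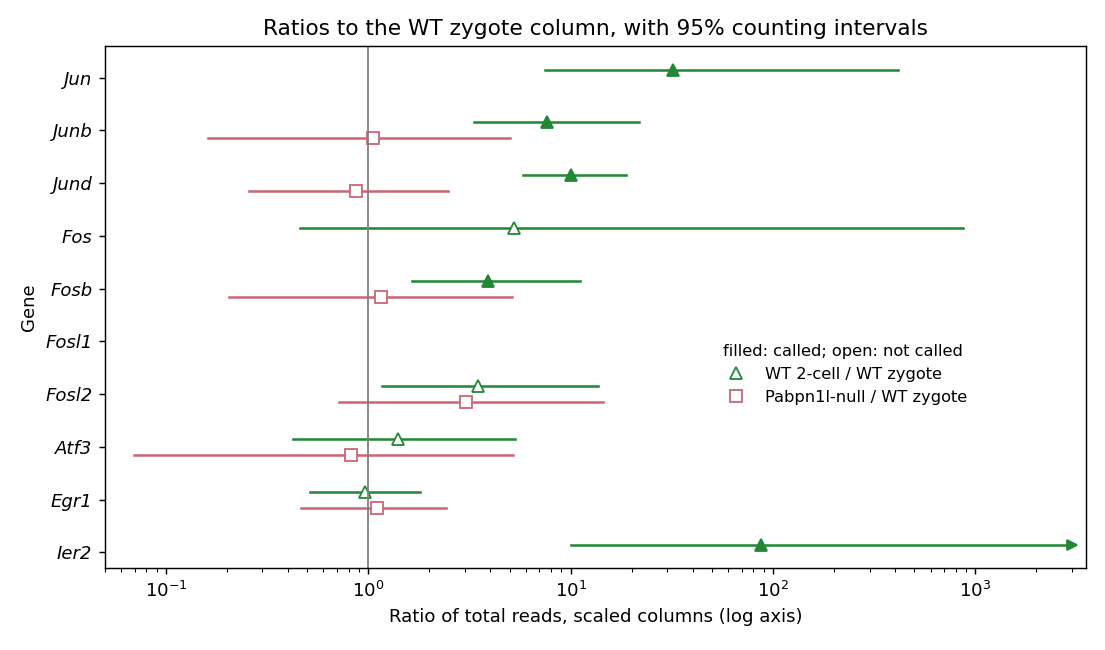
Ratios of total reads to the WT zygote column (log axis) for 2-cell embryos (triangles) and null zygotes (squares), with exact 95% intervals on molecules and filled symbols for called genes. No symbol is drawn where both counts are within the detection limit, and the arrow of Ier2 marks an interval that runs past the axis. The 5 filled triangles lie between 3.91 and 87.2, and each interval for null zygotes includes 1.

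T-to-C reads of the 10 genes came mostly from Junb and Jund in 2-cell embryos. The 10 genes together held 7, 3 and 137 T-to-C reads, and Junb and Jund held 109 of the 137. Junb had 0, 0 and 50 T-to-C reads, and Jund had 0, 0 and 59. Both were thus without a T-to-C read in either zygote column. With the WT zygote count set at its limit of 21 reads, the ratio of T-to-C reads was 1.83 for Junb and 2.16 for Jund. These values leave out the counting error of the 2-cell reads and are not minimum differences. For both genes the lower end of the exact 95% interval on molecules was smaller. Of the 3 members with enough T-to-C reads to test (Junb, Jund and Egr1), 0 were called by the exact conditional binomial test and 2 had an unadjusted p under 0.05, where 5.62% of 4376 genes were called in either direction. The adjusted p was 0.344 for Junb and 0.196 for Jund. With edgeR's exact test with that assumed variation both were called (adjusted p = 9.26e-04 and 5.02e-04), and with every read counted as 1 molecule as well. These 3 reached the filter of 10 T-to-C reads only through their 2-cell reads (50, 59 and 8). In null against WT zygotes they could not have been called. Junb and Jund had 0 T-to-C reads in both zygote columns and Egr1 had 1 in each. Over all genes tested 0.0457% were called there. In the authors' deposited table Junb and Jund carried a Positive call in 2-cell embryos, as did 1356 genes there, and the 10 genes had no Positive call in zygotes.

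The share of T-to-C reads, given as a description with no test between genes, was highest for Junb in 2-cell embryos. It was 11.96% for Junb (5.002% to 23.0%), 4.65% for Jund (2.08% to 8.81%), 1.76% for Ier2 (0.0662% to 8.65%) and 0.868% for Jun (0.00194% to 7.07%). The whole 2-cell column stood at 4.54%, so the interval for Junb lay above it and the others included it. Counted by single reads the interval for Jun was 0.237% to 2.21%, that for Ier2 0.764% to 3.44% and that for Fosl2 0.0193% to 4.18%, all below the whole column. That for Junb was 9.01% to 15.5%. Jun and Junb thus had like totals of 461 and 418 reads but 4 and 50 T-to-C reads. Of the 5112 genes with at least 100 reads in the 2-cell column, 9.41% had a higher share than Junb, 22.9% than Jund, 57.0% than Ier2 and 78.2% than Jun. The median share of these genes was 2.06%, inside the single-read intervals for Jun, Ier2 and Fosl2. Egr1 had a share of 4.42% (8 of 181 reads), Fosb of 2.23% (5 of 224) and Fosl2 of 0.763% (1 of 131). Without Junb and Jund the members' share was 1.81% in 2-cell embryos, 2.56% in WT zygotes and 2.01% in null zygotes. Leaving them out lowers the 2-cell share and raises the zygote shares, as they held most 2-cell T-to-C reads and 0 zygote ones. The zygote shares rest on 7 and 3 T-to-C reads, no more than 1 molecule as counted here, so no change between columns is read from them. The number of T positions per read also sets how often a mismatch can be seen, and its part in these shares was not tested.

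The zygote counts set wide limits on a change of the share between columns. In WT zygotes Junb had 0 of 42 reads with the mismatch, which allows a share of up to 50.0%, and Jund 0 of 97, which allows up to 21.6%. Of 6 members with at least 20 reads in both columns, 0 were called by Fisher's exact test on molecules and 0 had an unadjusted p under 0.05, where 1.9% of 6909 genes were called (1.84% higher and 0.0579% lower). In null against WT zygotes 0 of 5 members and 0 of 5999 genes were called, with 0 members and 48 genes at an unadjusted p under 0.05. No member's share was called with every read counted as 1 molecule either.

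**Figure D3:**
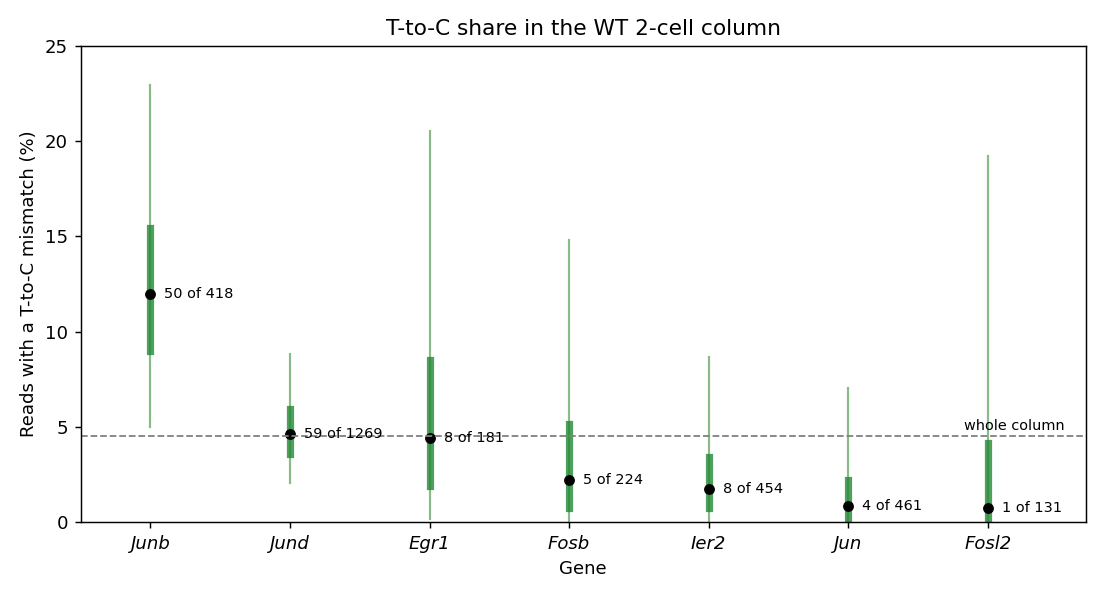
T-to-C share in the WT 2-cell column for the 7 genes with at least 100 reads there, with T-to-C and total reads beside each point. Thin lines are exact 95% intervals on molecules and thick lines the same on single reads, and the dashed line is the whole column at 4.54%. Junb at 11.96% is the highest point, and Jun and Fosl2 are the lowest.

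By likeness of pattern, measured as the distance over 4 log2 ratios (null and 2-cell against WT zygotes, in total and T-to-C reads) among 2794 genes with at least 20 T-to-C reads, the genes nearest to Jund were Baz1a, which codes for a chromatin remodelling subunit, at a distance of 0.39, Junb at 0.56 and the histone gene Hist1h4c at 0.67. Baz1a had 57, 25 and 649 reads and 1, 1 and 84 T-to-C reads. Apart from Jund, Junb was the only member with at least 20 T-to-C reads, so the remaining members were not compared.

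Of 23 other immediate early genes tested, 13 were called higher in the 2-cell column, 1 was lower and 9 were not called, where 16.3% of all genes tested were called higher. Of the 23, 9 passed the filter only through their 2-cell reads, which sets their direction, and 4 of these were among the 13 (Ier5, Hes1, Klf2 and Gadd45b). The median log2 ratio was 2.08 (1.75 with genes at 0 set at their bound), that of the AP-1 genes with Egr1 and Ier2 was 1.90, and that of all genes tested was 0.03. Each of these medians includes genes that passed only through 2-cell reads (9 of 23, 3 of 9 and 2490 of 11262), which raises it. Ier5, a relative of Ier2, had 5, 0 and 500 reads (ratio 76.9, lower end 10.5). Hes1, a Notch target and repressor, had 7, 0 and 421 (46.2, lower end 7.99), none of which was a T-to-C read. Csrnp1, a nuclear protein gene induced by AXIN1, had 80, 22 and 1420 (13.6, 7.54 to 27.4), with 45 T-to-C reads in 2-cell embryos. Klf4 had 31, 0 and 357 (8.85, 3.39 to 31.1), with 50. Also called higher were Klf2, Gadd45b, Per1, Zfp36, Mcl1, Maff, Btg2, Srf and Sik1, with ratios from 2.30 to 19.8. Dusp1, a phosphatase that switches off MAP kinases, had 209, 92 and 65 and was lower (0.239, 0.101 to 0.512). The Nr4a1 and Egr4 genes had 0 reads in all columns. By edgeR's exact test with that assumed variation 11 were called higher and 0 lower: 8 of the 13 kept the call, Btg2, Maff, Mcl1, Sik1 and Srf lost it, and Ier3, Myc and Ptgs2 were added. In null zygotes Ier5l, with 446, 564 and 843 reads, was higher than in WT zygotes (2.80, 1.99 to 3.95), and no other was called. With edgeR's test Ier5l was not called (adjusted p = 0.50).

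Among bZIP partners of AP-1, 5 of 22 tested were higher and 1 lower in 2-cell embryos (16.3% and 16.0% of all genes tested), 2 of the 5 having passed the filter only through 2-cell reads, with a median log2 ratio of 0.64. The small MAF gene Mafk had 23, 11 and 513 reads (17.1, 5.89 to 77.4), and Bach1, a repressor that pairs with small MAF proteins, had 27, 11 and 808 (23.0, 8.61 to 88.6). Nfe2 had 0, 0 and 76 (lower end 1.9), and Atf2, which can pair with JUN, had 516, 119 and 2263 (3.37, 2.61 to 4.40). Atf6, a sensor of endoplasmic reticulum stress, fell from 435 to 118 (0.208, 0.114 to 0.362), while its T-to-C share rose from 3.45% to 38.1% (adjusted p = 0.0386 by Fisher's exact test, and 0.0678 with no filter). Nfe2l1 and Atf4, with the most reads of the list, had ratios of 0.735 and 0.590 and were not called. In null zygotes Cebpb, with 139, 193 and 242 reads, was higher than in WT zygotes (3.07, 1.66 to 5.77), a call lost with edgeR's test (adjusted p = 0.45), which called Atf6b higher (7 WT and 46 null reads) and Bach2 lower (50 and 0).

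Of the kinases and SRF factors upstream, 5 of 21 (23.8%) were higher and 0 lower in 2-cell embryos, against 16.3% and 16.0% of all genes tested, and the median was 0.62. Mapk10 passed the filter only through its 2-cell reads. Mapk14, which codes for p38 alpha, had 208, 76 and 1161 reads (4.29, 2.89 to 6.57), and Mapk10, Map3k7, Rps6ka1 and Srf were called as well. Mapk8, which codes for the kinase JNK1, had total reads of 1270, 544 and 2306 (1.396, 1.16 to 1.68) and was not called in them, but its T-to-C reads of 58, 18 and 307 were higher (4.07, 1.91 to 9.84). Map2k4, which codes for a kinase that activates JNK, had the most reads of the list, 1819, 502 and 1987 (0.840, 0.707 to 0.998), and was not called. Scaling by the T-to-C totals ended the T-to-C call of Mapk8 (adjusted p = 0.138 by the exact conditional binomial test), as did edgeR's test (adjusted p = 0.0773). With edgeR's test 1 of the 5 was called, and 0 of the 21 were called in null zygotes by either test (2 at an unadjusted p under 0.05).

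Of the genes of JUN turnover and of AU-rich mRNA decay, 7 of 14 were higher and 0 lower, against 16.3% and 16.0% of all genes tested, with a median of 1.34. Zfp36l1, 1 of the 7, passed the filter only through its 2-cell reads. Btg1 had 36, 38 and 898 reads (19.2, 8.10 to 58.9) and Tob1 101, 32 and 932 (7.09, 4.11 to 13.2), both of which code for partners of the CCR4-NOT deadenylase. Zfp36l1 had 1, 0 and 125 (lower end 3.09) and Zfp36 12, 24 and 148 (9.48, 2.13 to 108), which code for proteins that bind AU-rich elements. Rfwd2, a ubiquitin ligase gene for JUN, had 346, 166 and 1132 (2.52, 1.82 to 3.53), and Itch was also higher. The most reads of this list were those of Tob2, with 1439, 951 and 4785 (2.56, 2.18 to 3.002), which was higher, and Khsrp, with 1192, 571 and 1561 (1.01, 0.821 to 1.24), which was not called. With edgeR's test 4 of the 7 were called. In null zygotes 0 of the 14 were called by either test (1 at an unadjusted p under 0.05).

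Of 20 AP-1 target genes known from other cells, 9 had enough reads to be tested, 5 of them, Mt1 included, only through their 2-cell reads. Of the 9, 2 (22.2%) were higher in 2-cell embryos, Ccnd1 (34, 0 and 336 reads, 7.60, 3.01 to 24.96) and the metallothionein gene Mt1 (2, 0 and 94, lower end 2.08), against 16.3% of all genes tested, and 1 was lower, Gclm (91, 37 and 22, 0.186, 0.0356 to 0.663). The collagenase and stromelysin genes Mmp3, Mmp10 and Mmp13 had 0 reads in all columns. By edgeR's test 5 were higher, with Lif, Mt2 and Vegfa added. In null zygotes 0 were called, 0 had an unadjusted p under 0.05, and edgeR's test called Ccnd1 and Gclc lower. The median of the tested targets was 2.82, or 1.57 with genes at 0 set at their bound.

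**Figure D4:**
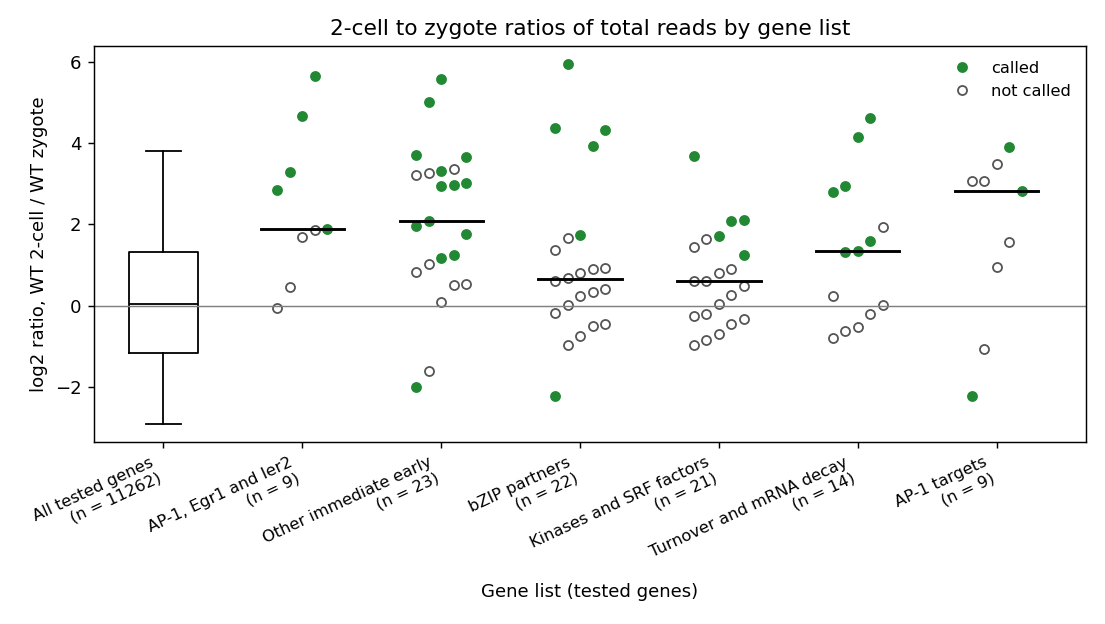
Log2 ratios of total reads in 2-cell embryos against WT zygotes by gene list, each point a tested gene, filled where called, with a bar at the median. The box shows the middle 50% and the whiskers the 5% to 95% range of all 11262 tested genes. The bars of the AP-1 group and of the other immediate early genes lie at 1.90 and 2.08, and the line of all genes at 0.03.

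AP-1 genes are also active in cells that surround the embryo, so markers of these were read in the same columns. The 24 markers of cumulus and granulosa cells summed to 225.9, 140.3 and 119.8 RPM in the same order, with 13, 20 and 13 of them at 0. Most of their reads were those of Serpine2 (373, 120 and 104, lower in 2-cell embryos) and Nr5a2 (134, 41 and 241, not called), and Cyp19a1 was lower as well. Among them Ptx3, Tnfaip6, Lhcgr and Amh were at 0 in all columns. Others went the other way: Amhr2, Inhbb and Star passed the filter only through their 2-cell reads. By edgeR's test with that assumed variation Inhbb was called higher in 2-cell embryos and 2 markers were called lower. The part of these cells in the result was not tested. The 8 blood cell markers in the table summed to 17.2, 0.746 and 16.3, and Ptprc was at 0 in all columns. The 7 markers of oviduct epithelium summed to 2.36, 0 and 46.7, with 5, 7 and 2 at 0. They moved with the AP-1 genes, mainly through Epcam with 0, 0 and 134 reads, while Ovgp1 had 6, 0 and 0, and their part in the result was not tested. The 10 sperm markers summed to 150.1, 204.4 and 459.1, of which Odf2 held 436, 274 and 1747 reads, and Prm1 and Tnp2 were at 0 in all columns. Odf2 also moved with the AP-1 genes, and its part was not tested.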

How the data were processed

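For each row and group the authors deposited 2 counts, of all reads and of T-to-C reads, with a Positive or Negative call. The genome build was mm10 according to the submitters' processing notes. No source used here names the aligner, counting tool, counted region, strand setting or handling of duplicates, or says whether a column holds 1 or both samples of its group. Of 30493 rows, 47 were left out because the name beside the WT zygote counts differed from that beside the null zygote counts. Whether each of these names had been turned into a date was not checked. For a repeated name the row with most reads was used. Levels were not compared between genes, since counted lengths are not known.

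Columns were scaled by TMM factors from edgeR 4.0.16 (0.988 for WT zygotes, 1.05 for null zygotes, 0.959 for 2-cell embryos), also for T-to-C reads. Genes were tested with at least 20 total or 10 T-to-C reads over the 3 columns, in Python 3.11.15 with scipy 1.17.1, and shares with at least 20 reads in both columns. For log2 ratios 0.5 molecule scaled to column size was added. P values were Benjamini-Hochberg adjusted over all genes tested, and the tests were checked on simulated data.

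Members, lists and tests were chosen with earlier results of these data known. By rule, all 10 members were named, of each pathway list the called genes and the 2 with the most reads, and the 3 genes nearest to the member with the most reads. Genes at 0 and genes called by edgeR alone were named after their values were seen, and the zygote and 2-cell markers are given as counts. The values of 1 called gene of the bZIP list are not reported here. No replicate fit was possible. Alternatives were the scaling, the filter, the reads per molecule, edgeR's exact test at an assumed variation of 0.4 and the sum of distinct rows.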

Additional observations from a re-analysis of the deposited data

How the results depend on the processing

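Jun, Junb, Jund and Ier2 kept their calls in total reads of 2-cell embryos under each alternative in which they were tested, and with at least 50 reads in 2 columns, where of these 4 only Jund was tested, 1 member was called. Egr1 changed sign with DESeq2's median-ratio factors (log2 0.21), with which the median over all genes went from log2 0.03 to 0.29 and the share of higher among called genes from 50.5% to 61.8%. In T-to-C reads of 2-cell embryos that share was 72.4%, 82.5% with those factors and 48.7% with T-to-C reads scaled by their own totals, and in total reads of null zygotes it was 46.2%, 57.6% with column totals and 16.3% with edgeR's exact test (24 higher, 123 lower). With every read as 1 molecule the genes called numbered 2689, 744 and 732 in null zygotes (total reads, T-to-C reads and share), against 156, 2 and 0, and 6648, 2155 and 1006 in 2-cell embryos, against 3633, 246 and 131, with 51.9%, 61.4% and 74.1% of them higher, against 50.5%, 72.4% and 96.9%. Members called were then 1 in total reads of null zygotes (Fosl2) and 2 in T-to-C reads of 2-cell embryos. In total reads of 2-cell embryos 7 members were called in place of 5, with Fos and Fosl2 added. With molecules of 7 reads in the null column alone, 325, 9 and 1 genes were called in null zygotes and again 6648, 2155 and 1006 in 2-cell embryos, with 2 members in T-to-C reads. The filter of 50 reads gave 2260 calls for total and 86 for T-to-C reads of 2-cell embryos and 4 in T-to-C reads of null zygotes, and the share of higher calls in 2-cell embryos was then 33.9% (767 higher, 1493 lower) in total reads and 40.7% (35 and 51) in T-to-C reads. With edgeR's exact test T-to-C calls numbered 1 in null zygotes and 937 in 2-cell embryos, 2 of them members. The cause of these changes was not tested. No paired analysis was possible because the table has no column per sample, so the replicate block, DESeq2 and leaving out each replicate were not run. The null column had the fewest reads, and its intervals are wide.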
